A study of Mus musculus with 8 samples.

Results

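The heat shock proteins and their DnaJ co-chaperones were examined in tibialis anterior (TA) muscle after deletion of Sdhc. Members were the genes whose symbol begins with Hsp90, with Hspa, Hspb, Hspd, Hspe or Hsph and a digit, or with Dnaja, Dnajb or Dnajc and a digit. The rule found 63 of the 23930 targets in the table, and it used no measured value. Of these, 54 reached the mean of 1 RPM (reads scaled to the total of the library) needed for testing, and 9 did not. They were read by compartment, with 24 members assigned to the cytosol and nucleus, 12 to the endoplasmic reticulum (ER), 8 to mitochondria, 5 to the small heat shock proteins and 14 to a mixed remainder. A further 9 known genes of these families had no row under these symbols in the table and are not analysed here. They are Hsp90aa1, Hspa8, Hspa1l, Dnaja1 and Dnajb6 of the cytosol, Hspd1 of mitochondria, the small Hspb1 and Hspb8, and Dnajc17. Statements about the families below do not cover them.

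The comparison held 4 WT and 4 KO libraries, each made with a targeted panel (Ion AmpliSeq Transcriptome Mouse) that measures 1 short amplicon per gene. KO mice carried HSA-Cre, a tamoxifen-inducible recombinase driven by the promoter of skeletal muscle actin, with loxP sites in Sdhc, which encodes a membrane anchor of succinate dehydrogenase (complex II of the respiratory chain). WT mice were littermates that also carried the Cre but no loxP sites. All mice were given tamoxifen at 12 weeks of age and TA muscle was taken 3 weeks later. The growth protocol gives C57/B6 for the KO line, whereas the genotype labels of the KO samples run from C57BL/7 to C57BL/12 and those of WT all read C57BL/6. Deletion is limited to cells in which the actin promoter is active, but RNA came from whole muscle. The labels number the libraries without stating that each is a separate mouse, so p-values measure the spread between these libraries.

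Chaperones of the Hsp70 class bind unfolded segments of proteins and let go of them in a cycle driven by ATP. J-proteins, named after bacterial DnaJ, bring clients to Hsp70 and start its ATP hydrolysis, and Hsp110 proteins exchange the nucleotide. Hsp90 acts later on near-native clients, such as kinases, steroid receptors and, in muscle, the myosin motor. The ER and the mitochondria each have their own Hsp70 and J-proteins, and small heat shock proteins, abundant in muscle, hold damaged proteins of the Z-disc and filaments without ATP.

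The libraries held 5983175 to 9119006 reads, and 3 reads, taken as the floor, corresponded to 0.329 to 0.501 RPM. The deletion was visible in every KO library, with Sdhc at 737 to 853 RPM across WT and 16.9 to 54.3 across KO (exact two-sided permutation test, p = 0.0286, the smallest that 4 against 4 libraries allow). Fast fibre genes summed to 95563 to 122906 RPM across WT and 109040 to 129794 across KO, with 7 of 7 above 0 in every library, which is the pattern of a fast muscle such as TA. WT1 and WT4 stood apart by bone genes. The 7 bone markers in the table summed to 3747, 913, 387 and 6278 RPM in WT1 to WT4 and to 134 to 362 RPM in KO, and none was at 0 in all libraries. Fibroblast markers (6 of 6 above 0 in every library) summed to 888 to 1389 RPM across WT and 379 to 749.8 across KO, and macrophage and immune markers (7 of 8) to 101 to 313 RPM and 54.6 to 82.4 RPM. Slow fibre markers (6 of 6) summed to 180.5 to 319 RPM across WT and 223 to 864 across KO, highest in KO4 and KO2.

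The promoters of 4 members are shown because they carry the control elements for which these families are known, and because the values of the ER genes below are read against them. Each is the RefSeq window from 250 bases before to 50 bases after the start of transcription (GRCm38.p6), written 5′ to 3′ on the gene's strand, with matches in capitals. The ER stress element, bound by ATF6 with NF-Y, was searched on both strands as CCAAT, a spacer of 9 bases and CCACG. The heat shock element, bound by HSF1, was searched as 3 alternating units of GAA and TTC, each 2 bases apart, starting with either. Hsp90b1 lies at chr10:86705395-86705694 (minus strand), Hspa5 at chr2:34771840-34772139 (plus), Dnajc3 at chr14:118937682-118937981 (plus) and Hspe1 at chr1:55087898-55088197 (plus).
Hsp90b1: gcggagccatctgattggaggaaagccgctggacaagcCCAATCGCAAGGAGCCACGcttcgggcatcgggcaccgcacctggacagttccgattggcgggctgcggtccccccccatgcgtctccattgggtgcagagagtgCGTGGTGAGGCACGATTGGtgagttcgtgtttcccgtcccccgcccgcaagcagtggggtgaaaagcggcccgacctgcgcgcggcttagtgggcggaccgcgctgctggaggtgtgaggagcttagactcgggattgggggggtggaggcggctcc
Hspa5: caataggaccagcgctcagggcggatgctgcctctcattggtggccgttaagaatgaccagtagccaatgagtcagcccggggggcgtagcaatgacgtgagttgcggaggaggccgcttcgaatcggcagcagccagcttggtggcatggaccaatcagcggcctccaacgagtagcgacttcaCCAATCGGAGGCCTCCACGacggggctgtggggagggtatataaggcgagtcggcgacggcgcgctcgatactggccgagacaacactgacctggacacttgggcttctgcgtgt
Dnajc3: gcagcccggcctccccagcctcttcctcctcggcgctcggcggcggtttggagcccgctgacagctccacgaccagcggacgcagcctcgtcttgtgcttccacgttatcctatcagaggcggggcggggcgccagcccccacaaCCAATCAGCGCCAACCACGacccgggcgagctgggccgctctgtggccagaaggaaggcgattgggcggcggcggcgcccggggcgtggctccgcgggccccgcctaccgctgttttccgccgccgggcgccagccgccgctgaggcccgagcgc
Hspe1: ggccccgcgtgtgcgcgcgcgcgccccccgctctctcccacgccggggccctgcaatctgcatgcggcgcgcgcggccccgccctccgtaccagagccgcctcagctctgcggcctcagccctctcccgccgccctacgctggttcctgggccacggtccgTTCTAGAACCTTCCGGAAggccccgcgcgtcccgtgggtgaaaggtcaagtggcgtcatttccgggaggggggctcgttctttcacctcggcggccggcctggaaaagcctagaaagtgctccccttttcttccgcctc

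Of the 63 members, 51 had a promoter window in the RefSeq table. The ER stress element was found in 3 of them, Hsp90b1, Hspa5 and Dnajc3, against 0.137% of the 27025 genes with a window. Hsp90b1 held 2 matches, beginning at -212 and, on the other strand, at -107 from the start of transcription, Hspa5 1 at -65 and Dnajc3 1 at -105. The heat shock element was found in Hspe1, as overlapping matches at -89 and -84, and in Hsph1, against 0.662% of genes. In Hsph1 it lay after the start of transcription, at 37 and 16 in its 2 windows. An ATF4 element (TGATG, 1 base and AAT, on both strands) was found in 0 of the 51, against 1.08% of genes. Only exact matches inside the windows were searched, so a gene without a match may hold an inexact or more distant element. These matches describe the letters of the windows, and binding was not measured.

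No heat shock or DnaJ gene passed the test between KO and WT. Over all genes, 0 of the 54 tested members had a BH-adjusted p under 0.05 in limma, where 3 of 11004 genes (0.0273%) did, and edgeR and DESeq2 also called 0 members, against 0.00909% and 1.35% of all genes. At an unadjusted p under 0.05 there were 3 members (5.56%), against 9.22% of all genes. Hsp90b1 was the 1 lower member, where 8.56% of all genes were lower, and Dnaja2 and Dnajc28 were the 2 higher members, where 0.663% of all genes were higher. In 1 member (1.85%), Dnajc28, the groups did not overlap, against 5.10% of all genes in either direction. Its KO libraries all lay above its WT libraries, as in 0.536% of all genes. In bulk muscle a lower level can mean fewer cells of a type or less RNA per cell, which cannot be told apart.

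The estimates were bounded as well as near 0. The median log2 fold change of the 54 members was 0.00, with 27 above and 27 below 0, beside a median of -0.05 over all tested genes, of which 40.8% were above 0. The split moved with the scaling, for the members as for all genes. With median-ratio or TMM scaling 36 members were above and 18 below 0, where 50.6% and 49.8% of all genes were above, and with quantile scaling 33 and 21, where 57.4% were above. It moved the other way without WT1 and WT4, to 21 above and 33 below, where 29.0% of all genes were above. The 95% interval lay within 1 log2 unit of 0 on either side for all 54 tested members and within 0.5 for 35 of them. These intervals are on log2(RPM + 1), which draws members near 1 RPM toward 0 and narrows their intervals. Hspa1b, for example, had an estimate of 0.22, and of 0.35 with a pseudocount of 0.1 RPM. Individual estimates ran from -0.47 for Hsp90b1 to 0.45 for Dnajc28, and 45 of 54 were smaller than 0.25 in size.

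**Figure D1:**
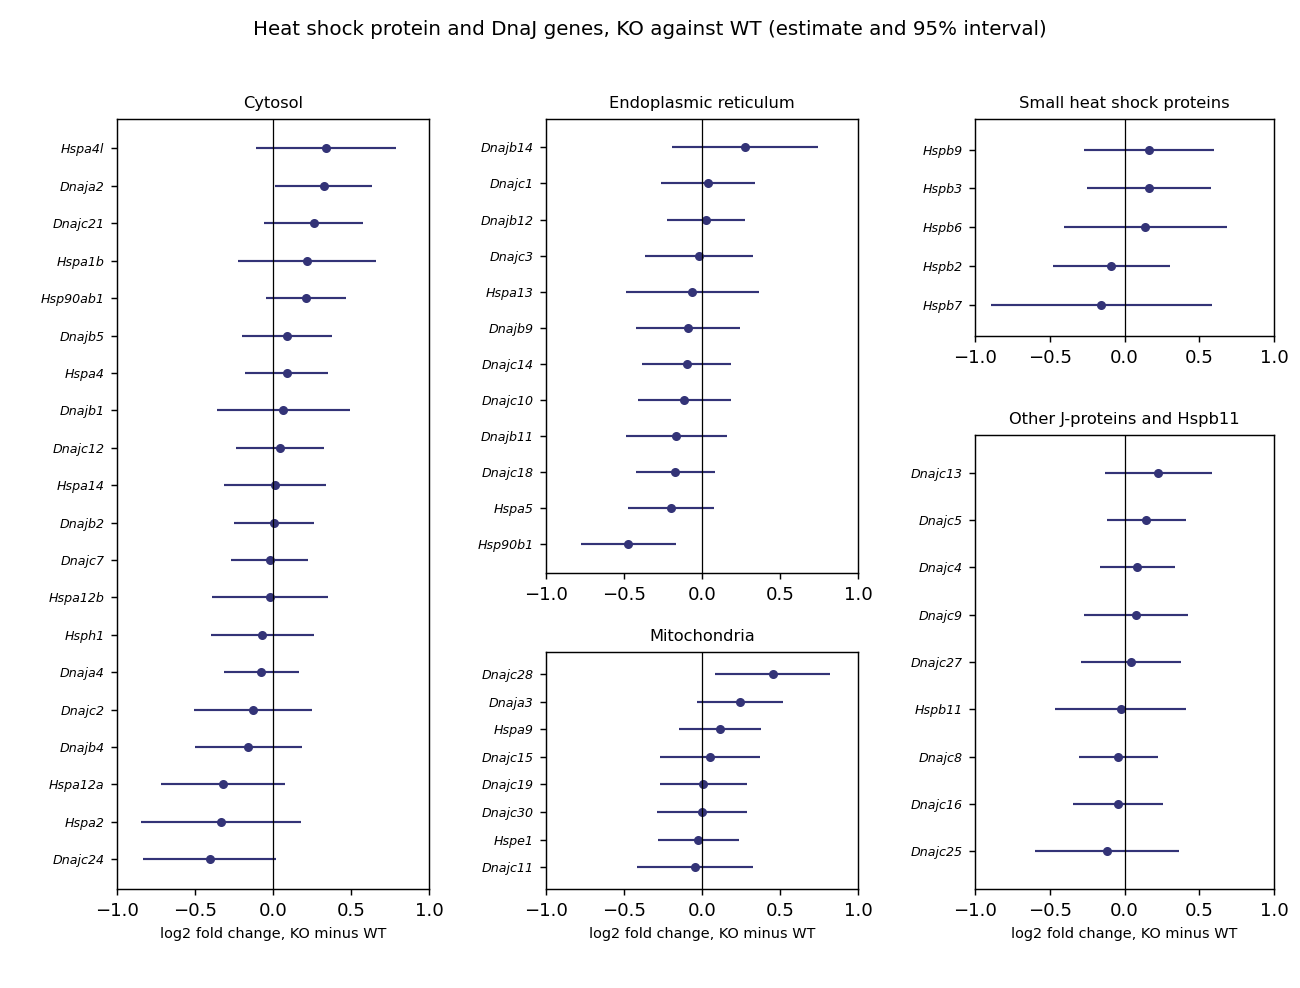
Log2 fold change (KO minus WT, on log2(RPM + 1)) of the 54 tested heat shock and DnaJ genes by compartment, with points for the limma estimate and bars for its 95% interval over 4 WT and 4 KO libraries. The interval leaves out 0 for Hsp90b1, Dnaja2 and Dnajc28 before adjustment for 11004 tests, and 51 of 54 intervals include it.

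The ER chaperones held the lowest estimate of the families. Hsp90b1 encodes GRP94, the Hsp90 of the ER, which folds integrins, Toll-like receptors and insulin-like growth factors. It read 425, 321, 289.7 and 416 RPM across WT1 to WT4 and 258, 245, 241 and 291 across KO1 to KO4. The 4 KO libraries were close together, and the highest of them, KO4, lay just above the lowest WT library, WT3. The means were 363 ± 67.7 RPM across WT and 259 ± 22.5 across KO (SD, n = 4 each). The estimate on the log2 scale was -0.47 (SE 0.14, 95% interval -0.78 to -0.16; limma, unadjusted p under 0.05, BH-adjusted p = 0.207). WT1 and WT4, the highest libraries for Hsp90b1, were also the highest for the bone markers, at 3747 and 6278 RPM. Without WT1 and WT4 the log2 fold change was -0.24 (limma, BH-adjusted p = 0.9999), and the part of bone or other non-muscle cells in the difference was not tested.

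Hspa5, or BiP, the ER Hsp70 that also holds the stress sensors inactive, read 155, 215, 184 and 179.8 RPM across WT1 to WT4 and 177, 145, 152 and 163 across KO1 to KO4. Its groups overlapped, its highest library was WT2, and it did not share the high values of Hsp90b1 in WT1. The log2 fold change was -0.20 (95% interval -0.47 to 0.08; limma, BH-adjusted p = 0.734). Dnajc3, or p58IPK, a J-protein of the ER lumen that serves Hspa5, read 21.7, 24.3, 20.8 and 26.2 RPM across WT and 30.1, 23.8, 19.1 and 19.8 across KO. Its means were alike, 23.2 ± 2.47 and 23.2 ± 5.05 RPM (SD, n = 4 each), with an interval of the log2 difference from -0.37 to 0.33. The 3 members with an ER stress element in the promoters printed above thus had log2 estimates of -0.47, -0.20 and -0.02.

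The other J-proteins of the ER also overlapped between the groups. Dnajb9, or ERdj4, an induced partner of Hspa5 in ER-associated degradation, read 89.0, 119, 125 and 86.1 RPM across WT1 to WT4 and 90.1, 119.5, 92.0 and 89.5 across KO1 to KO4. KO2 was apart from the other KO libraries and level with WT2 and WT3. Dnajb11, or ERdj3, which binds unfolded clients directly, read 27.5, 38.6, 34.6 and 40.6 RPM across WT and 35.9, 31.8, 27.0 and 30.2 across KO. Its log2 fold change was -0.16 (95% interval -0.49 to 0.16), with overlapping groups. Hspa13, Dnajb12, Dnajb14, Dnajc1, Dnajc10, Dnajc14 and Dnajc18 had log2 estimates from -0.17 (Dnajc18) to 0.28 (Dnajb14), none with an unadjusted p under 0.05. As a group, 9 of the 12 ER members were below 0, with a median of -0.09, against 59.2% of all genes below 0. With quantile scaling 7 were below and 5 above, where 57.4% of all genes were above. The median without WT1 and WT4 was -0.09, beside -0.10 over all genes. Bone, fibroblast and immune markers were lower in KO with these estimates, by the sums given above, and their part was not tested.

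**Figure D2:**
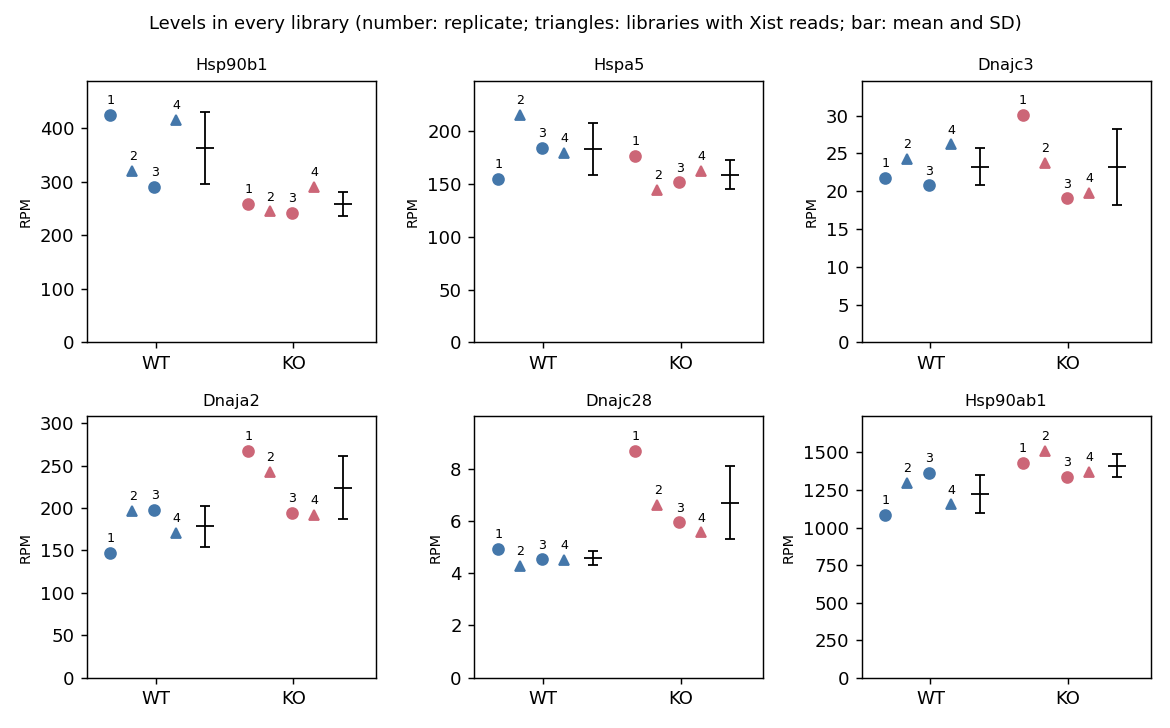
RPM of Hsp90b1, Hspa5, Dnajc3, Dnaja2, Dnajc28 and Hsp90ab1 in each library (points, numbered by replicate; triangles mark libraries with Xist reads), with the mean and SD of the 4 libraries of each group beside them. Hsp90b1 is highest in WT1 and WT4, at 425 and 416 RPM, and of these 6 genes only Dnajc28 has all 4 KO libraries above all 4 WT libraries.

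Genes that work beside the ER members were described from a textbook list. Of 15 ER folding genes outside the rule, 12 were below 0 (median on the log2 scale -0.24), where 59.2% of all genes were below, and 0 passed the BH threshold in limma, edgeR or DESeq2. Fibroblast markers, at 888 to 1389 RPM across WT and 379 to 749.8 across KO, and bone and immune markers were lower in KO beside them, and their part in this list was not tested. At an unadjusted p under 0.05 there were 3, all lower, where 8.56% of all genes were lower. Manf, a secreted ER stress factor, read 36.5, 42.6, 38.9 and 46.8 RPM across WT1 to WT4 and 33.3, 37.0, 30.1 and 28.9 across KO1 to KO4, with KO2 just above WT1 (log2 fold change -0.34, limma, BH-adjusted p = 0.407). Pdia4, a protein disulfide isomerase, read 28.8, 24.3, 19.2 and 34.1 RPM across WT and 16.9, 19.97, 20.9 and 18.6 across KO, again highest in WT4 and WT1 (-0.43, limma, BH-adjusted p = 0.414). Sdf2l1, a partner of the ER Hsp70 system, averaged 3.94 ± 1.35 and 2.32 ± 0.605 RPM (SD, n = 4 each; log2 fold change -0.55, limma, BH-adjusted p = 0.428), with overlapping groups. Of the 6 factors of the unfolded protein response, 5 were below 0 with a median of -0.08 and 0 at an unadjusted p under 0.05, in limma. Among all genes 59.2% were below 0. Of these 5 factors, Ern1 and Ddit3 had estimates of -0.03 and -0.04. This split and that of the ER folding genes were read on the RPM scale only. With median-ratio scaling the median over all tested genes moved from -0.05 to 0.003. Xbp1, the transcription factor spliced by the sensor Ire1, averaged 147 ± 14.6 and 129.9 ± 14.5 RPM, and Eif2ak3, the sensor PERK, 9.06 ± 1.37 and 7.76 ± 1.26 RPM (SD, n = 4 each).

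**Figure D3:**
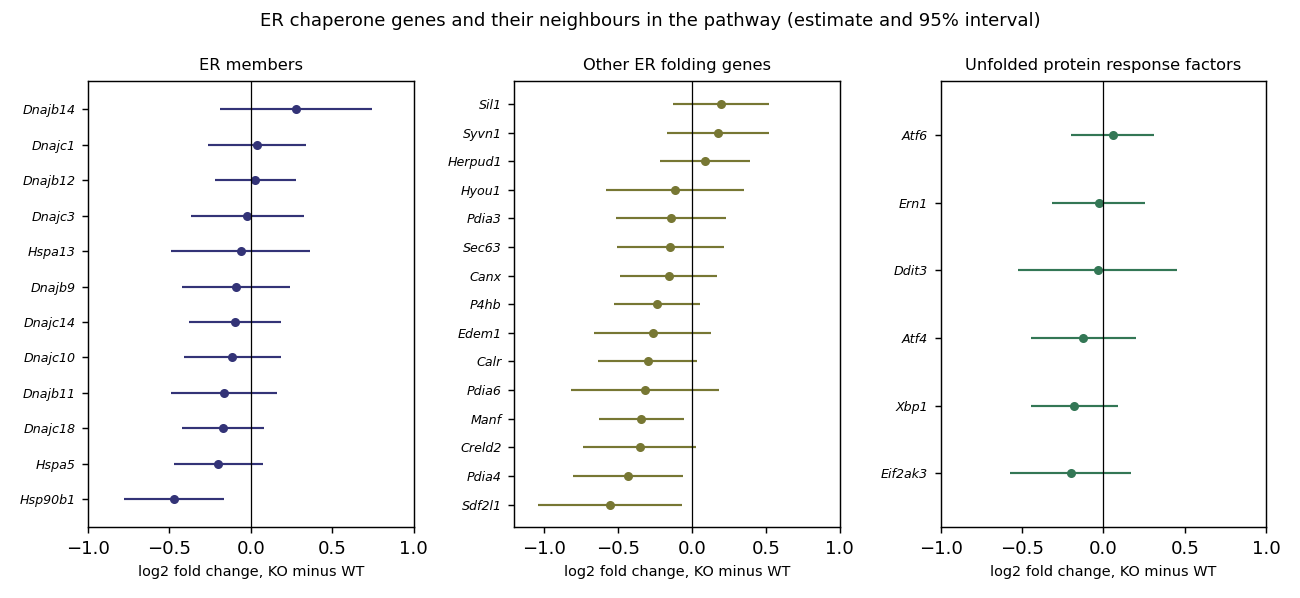
Log2 fold change (KO minus WT) with 95% intervals for the 12 ER members (left), 15 other ER folding genes (middle) and 6 factors of the unfolded protein response (right), over 4 WT and 4 KO libraries. On the RPM scale shown, points lie below 0 for 9 of 12, 12 of 15 and 5 of 6 genes, beside 59.2% of all genes. No gene passed the BH threshold.

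Cytosolic chaperones lay on both sides of 0. Of 20 tested members 11 were above and 9 below 0 (median on the log2 scale 0.01), where 40.8% of all genes were above. With median-ratio or TMM scaling 13 were above and 7 below, where 50.6% and 49.8% of all genes were above. Without WT3 there were 15 and 5, where 46.1% of all genes were above. Without WT1 and WT4 there were 8 and 12 (median -0.03), where 29.0% of all genes were above. Hsp90ab1, the constitutive cytosolic Hsp90, read 1083, 1296, 1364 and 1153 RPM across WT1 to WT4 and 1429, 1513, 1337 and 1370.5 across KO1 to KO4. Its KO libraries lay at or above most WT libraries, but KO3 lay below WT3, and the estimate was 0.21 (95% interval -0.05 to 0.47; limma, BH-adjusted p = 0.658). It was 0.09 when WT1 and WT4 were left out.

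Dnaja2, a cytosolic J-protein that serves Hsp70 in refolding, had the smallest p of the cytosolic members. It read 147, 197, 198 and 171 RPM across WT1 to WT4 and 268, 243, 194 and 192 across KO1 to KO4. KO1 and KO2 exceeded every WT library, while KO3 and KO4 were level with WT2 and WT3. The means were 178 ± 24.1 and 224 ± 37.4 RPM (SD, n = 4 each). On the log2 scale the difference was 0.32 (SE 0.15, 95% interval 0.01 to 0.64; limma, unadjusted p under 0.05, BH-adjusted p = 0.508). Leaving out WT1 and WT4 gave 0.17 (limma, BH-adjusted p = 0.9999).

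The stress-inducible genes of the cytosol gave few reads or overlapping groups. Hspa1b, an inducible Hsp70, read 1.86, 1.14, 0.932 and 1.83 RPM across WT1 to WT4 and 1.67, 2.11, 1.49 and 1.97 across KO1 to KO4, resting on 7 to 17 reads per library. Its near-identical neighbour Hspa1a stood below the filter, at 0.439, 0.857, 0.266 and 0.487 RPM across WT and 0.501, 0.984, 0.371 and 0.926 across KO, or 2 to 8 reads. The sources used here do not say how reads shared by these copies were counted, so their separate levels are uncertain. Dnajb1, the J-protein induced together with Hsp70 by HSF1, read 10.5, 11.9, 13.6 and 12.1 RPM across WT and 18.7, 11.5, 12.9 and 8.91 across KO. KO1 was its highest and KO4 its lowest library, so that the KO values enclosed all WT values (log2 fold change 0.07, 95% interval -0.36 to 0.49).

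The Hsp110 exchange factors overlapped between the groups as well. Hsph1, itself a heat shock gene, read 155, 124, 185 and 114 RPM across WT1 to WT4 and 119.8, 148, 138 and 137 across KO1 to KO4, with the KO libraries inside the WT range (log2 fold change -0.07, 95% interval -0.40 to 0.26). Hspa4 read 174, 142, 170.1 and 156 RPM across WT and 197, 173, 157 and 155 across KO (0.09, interval -0.18 to 0.35). Hspa4l, its paralog, was at 3.19 to 6.14 RPM across WT and 4.18 to 6.89 across KO. It had the highest cytosolic estimate, 0.34, with an interval from -0.11 to 0.79 on 24 to 53 reads per library. The lowest cytosolic estimate was -0.41 for Dnajc24, which is needed for the diphthamide modification of elongation factor EF2, at 3.46 to 5.71 RPM across WT and 2.72 to 4.18 across KO (95% interval -0.83 to 0.02). The cytosolic J-proteins Dnajb5 (505.9 to 722 RPM across WT, 556 to 679.6 across KO) and Dnaja4 (297 to 363 RPM and 304 to 338 RPM) overlapped between groups.

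Partners of the cytosolic Hsp70 and Hsp90 were examined likewise. Of 21 tested factors and co-chaperones outside the rule 16 were above 0 (median on the log2 scale 0.11), where 40.8% of all genes were above. The split was read on the RPM scale only. None passed in limma, edgeR or DESeq2 or had an unadjusted p under 0.05 in limma, where 9.22% of all genes had such a p. Unc45b, the muscle chaperone that loads Hsp90 onto myosin, read 457, 419, 576 and 358 RPM across WT1 to WT4 and 610.2, 514, 570.4 and 479 across KO1 to KO4 (log2 fold change 0.28, limma, BH-adjusted p = 0.631), with overlapping groups. Fkbp4, an Hsp90 immunophilin, averaged 131 ± 14.0 and 149.7 ± 5.26 RPM (SD, n = 4 each; limma, BH-adjusted p = 0.679), and all 4 KO libraries lay above all 4 WT libraries, as in 0.536% of all genes. The 5 genes of the BAG family in the table had a median of -0.06. Among them Bag1 averaged 44.2 ± 11.4 and 53.8 ± 17.4 RPM and Bag6 306 ± 20.2 and 319 ± 12.6 RPM. The 14 genes of the TRiC chaperonin and of prefoldin, which fold actin and tubulin, had a median of 0.07. Of them 9 were above 0 on the RPM scale, the only scale read, where 40.8% of all genes were. Cct5 averaged 214 ± 37.8 and 248 ± 29.1 RPM and Pfdn2 84.4 ± 5.35 and 74.6 ± 18.5 RPM (SD, n = 4 each), and none of the BAG, TRiC or prefoldin genes had an unadjusted p under 0.05.

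Mitochondrial chaperones act where complex II resides, on proteins that enter the matrix. Hspa9, or mortalin, the matrix Hsp70 and motor of protein import, read 507, 588, 629 and 499.99 RPM across WT1 to WT4 and 627, 654, 585 and 537 across KO1 to KO4. The groups overlapped, and the log2 fold change of 0.11 had a 95% interval from -0.15 to 0.38 (limma, BH-adjusted p = 0.888). It was -0.02 when WT1 and WT4 were left out. Hspe1, the co-chaperonin that caps the matrix chaperonin, read 177, 205, 183 and 187 RPM across WT and 213, 198, 171 and 163 across KO. Its estimate was -0.02 with an interval from -0.28 to 0.24, and its promoter, printed above, is the one with overlapping heat shock elements.

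The J-proteins of mitochondria included the highest estimate of all members. Dnajc28 read 4.94, 4.29, 4.53 and 4.51 RPM across WT1 to WT4 and 8.69, 6.61, 5.94 and 5.56 across KO1 to KO4, on 30 or more reads per library. The WT libraries were tightly grouped and every KO library lay above them. The means were 4.56 ± 0.271 and 6.70 ± 1.40 RPM (SD, n = 4 each). This gave a log2 difference of 0.45 (SE 0.17, 95% interval 0.09 to 0.82; limma, unadjusted p under 0.05, BH-adjusted p = 0.373), which understates the ratio because the level is near the pseudocount. Without WT1 and WT4 the estimate was 0.49.

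Dnaja3, or Tid1, a matrix partner of Hspa9, read 169, 188, 205 and 166 RPM across WT1 to WT4 and 238, 235, 209 and 182 across KO1 to KO4. KO1 to KO3 lay above all WT libraries and KO4 among them (log2 fold change 0.24, 95% interval -0.03 to 0.52; limma, BH-adjusted p = 0.620). Dnajc19, or Tim14, which drives Hspa9 at the import channel, read 277, 394, 360.3 and 347 RPM across WT and 348, 360.0, 365 and 305 across KO, and the means were 345 ± 49.5 and 345 ± 27.6 RPM (SD, n = 4 each). Dnajc15, its paralog at the inner membrane and known as a brake on the respiratory chain, read 64.8, 51.3, 63.6 and 50.4 RPM across WT and 73.0, 61.9, 55.0 and 49.5 across KO. In both genes the groups overlapped, with intervals from -0.27 to 0.29 and from -0.27 to 0.37. Dnajc11 (36.9 to 55.9 RPM across WT, 30.9 to 49.4 across KO), which is tied to the cristae complex, and Dnajc30 (27.5 to 36.1 RPM and 28.2 to 32.8 RPM), a mitochondrial J-protein, had estimates of -0.04 and -0.0025. Over the 8 mitochondrial members 5 were above 0 with a median of 0.03, where 40.8% of all genes were above. Their split followed the same choices. All 8 were above 0 with median-ratio or TMM scaling, where 50.6% and 49.8% of all genes were. With quantile scaling 6 were above, where 57.4% of all genes were. Without WT1 and WT4 3 were above and 5 below (median -0.04), where 29.0% of all genes were above.

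Mitochondrial chaperone, import and protease genes outside the rule gave 4 of 9 above 0 (median on the log2 scale -0.06) and 0 at an unadjusted p under 0.05. Of all genes, 40.8% were above 0 and 9.22% had such a p in limma. This split was read on the RPM scale only. Trap1, the mitochondrial Hsp90 and a known binding partner of succinate dehydrogenase, read 118, 140.4, 136 and 126 RPM across WT1 to WT4 and 159, 154, 134 and 147 across KO1 to KO4. KO3 lay inside the WT range and the other 3 KO libraries above it (log2 fold change 0.19, 95% interval -0.06 to 0.44; limma, BH-adjusted p = 0.695). Dnlz, which keeps mortalin soluble, averaged 47.9 ± 12.8 and 55.1 ± 4.31 RPM (SD, n = 4 each).

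Among the small heat shock proteins, Hspb7 and Hspb6 were the members with the largest spread between libraries of the same group. Hspb7, a heart and muscle protein that binds filamin C, read 311, 1043, 352 and 676 RPM across WT1 to WT4 and 430.5, 717, 307 and 528 across KO1 to KO4. Hspb6, or Hsp20, read 1044, 2857, 1328 and 1746 RPM across WT and 1631, 2036, 1438 and 2127 across KO. For both genes replicates 2 and 4 were the 2 highest libraries of their group in WT and in KO, and the groups overlapped. These 4 libraries were also the ones with Xist reads, and in a limma fit with sex as a second term 1 of 54 members, Hspb7, passed the BH threshold for sex, against 0.600% of all genes. The within-group SD of Hspb7 was 0.68 on the log2 scale and that of Hspb6 0.48, beside a median of 0.21 over the members and 0.24 over all tested genes. A larger SD was seen in 1.35% of genes with a mean of at least 50 RPM for Hspb7 and in 3.66% for Hspb6.

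The KO and WT means of both genes could not be separated against this spread. Hspb7 averaged 595 ± 339.8 and 496 ± 173 RPM, and the log2 estimate was -0.16, its 95% interval reaching from -0.89 to 0.58. For Hspb6 the means were 1744 ± 796 and 1808 ± 328 RPM (SD, n = 4 each), with an estimate of 0.14 and an interval from -0.41 to 0.68. Without WT1 and WT4 the estimate of Hspb6 was -0.13, without WT1 alone -0.07, and without WT2, its highest library, 0.41. The estimate of Hspb7 was -0.53 without KO2 and KO4 and -0.41 without WT1, and it turned positive, at 0.17 and 0.05, without WT2, its highest library, and without KO3.

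Hspb2 and Hspb3, which form a complex with each other in muscle, varied less. Hspb2 read 76.9, 132, 106 and 92.1 RPM across WT1 to WT4 and 68.5, 101, 108 and 103 across KO1 to KO4, with its highest library in WT2 and its lowest in KO1 (log2 fold change -0.09, 95% interval -0.48 to 0.30). Hspb3 read 68.2, 52.9, 36.9 and 74.9 RPM across WT and 54.8, 61.9, 68.1 and 68.5 across KO, where WT3 was lowest (0.16, interval -0.25 to 0.58). Without WT1 and WT4 the estimates were -0.33 and 0.50, and without WT3 that of Hspb3 was -0.04. Hspb9, known from testis, lay at 1.43 to 2.68 RPM across WT and 1.84 to 2.67 across KO. Cryab, the alpha-B crystallin outside the naming rule and a partner of these proteins, read 982, 1939, 1203 and 1194 RPM across WT1 to WT4 and 1356, 1547, 1116 and 1319.6 across KO1 to KO4 (0.04, interval -0.36 to 0.45), and like Hspb6 and Hspb7 it was highest in WT2. Cryaa, the crystallin of the lens, was at 0 in 7 of 8 libraries.

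**Figure D4:**
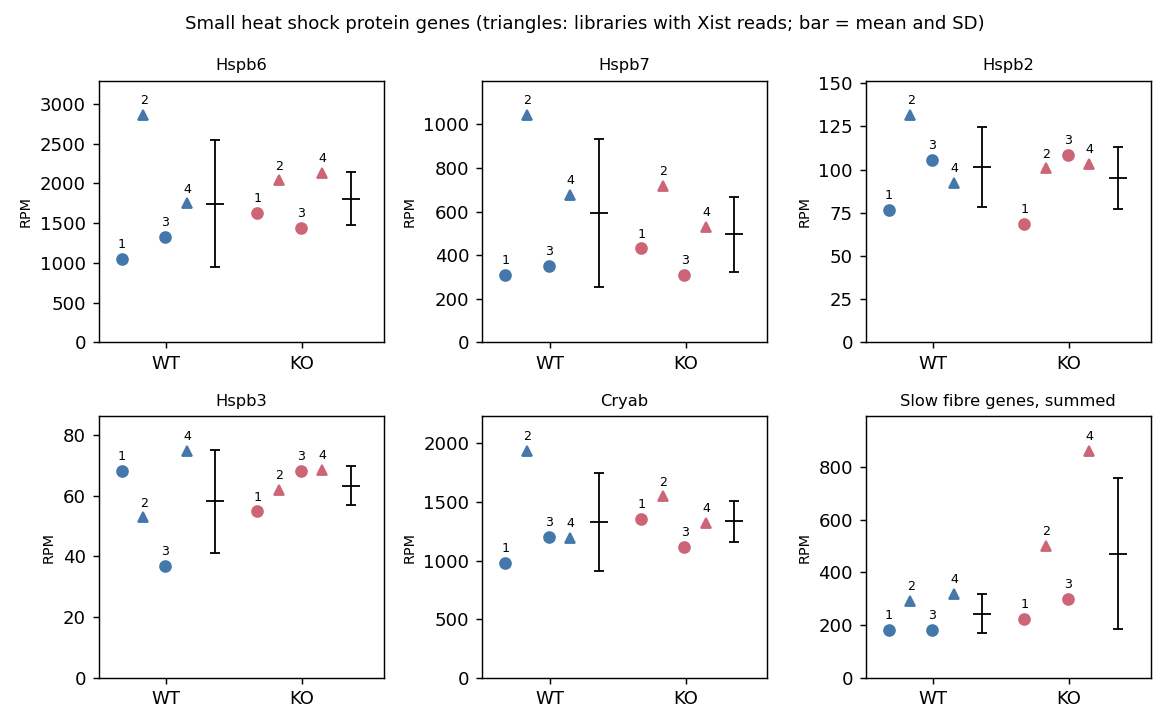
RPM of Hspb6, Hspb7, Hspb2, Hspb3, Cryab and the summed slow fibre markers in each library (points, numbered by replicate; triangles mark libraries with Xist reads), with mean and SD of each group of 4. In Hspb6 and Hspb7 the triangles lie above the circles of both groups. The slow fibre sum is also higher in the triangles within each group, and reaches 864 RPM in KO4.

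The remaining J-proteins are a mixed group that includes some serving vesicles, splicing, chromatin and endosomes. The 9 tested genes of this group, with Hspb11 of the cilium among them, had log2 estimates from -0.12 (Dnajc25) to 0.23 (Dnajc13), and 0 had an unadjusted p under 0.05 in limma. Dnajc5, the cysteine string protein of synaptic vesicles, lay at 33.3 to 35.4 RPM across WT and 33.9 to 42.3 across KO. Dnajc13, an endosomal J-protein, lay at 24.4 to 37.4 RPM and 28.5 to 43.8 RPM. Of the 9, 5 were above 0 on the RPM scale, where 40.8% of all genes were above. There were also 5 without WT1 and WT4, 8 with median-ratio or TMM scaling and 4 without WT4. The shares of all genes above 0 were 29.0% without WT1 and WT4, 50.6% and 49.8% with these scalings and 38.4% without WT4.

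The 9 members under the filter included several genes known from testis or brain. Dnajb8 was at 0 in all 8 libraries, which allows up to the floor of 0.329 to 0.501 RPM. Dnajb13, Dnajc5b, Dnajc5g, Dnajc6 and Dnajc22 were at 0 in 5 or more libraries. Dnajb3 reached at most 0.665 RPM, in WT3, and Dnajb7 lay at 0.694 to 1 RPM in all libraries. No fold change was formed for these genes.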

How the data were processed

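TA muscle RNA was read, per the labels' protocols, with the Ion AmpliSeq Transcriptome Mouse panel. The authors deposited 1 table of RPM values, with 1 column per library matched by barcode. Transcriptome Analysis Console is the tool listed, per the submitters' processing notes. For the aligner, the build and the counting rule the sources used here give no name. Low RPM values were whole multiples of 1 read, and 100.0% of values gave reads within 0.1 of a whole number, so reads were recovered.

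KO and WT were set against each other as log2(RPM + 1) of the 11004 targets averaging 1 RPM or more. The fit used limma 3.58.1 (R 4.3.3) with an intensity trend, two-sided tests and Benjamini-Hochberg (BH) adjustment over all of them at 0.05. Alternatives were pseudocounts of 0.1 and 5 RPM, other filters and scalings, no trend, a replicate block, sex as a term, edgeR 4.0.16 and DESeq2 1.42.0 on recovered reads, and libraries left out.

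The members, lists and compartments were chosen with earlier results of these data known. Library values are given for members at an unadjusted p under 0.05 or without overlap and for those defining members of each compartment that the table held. From each list, the genes past the threshold or else the 2 with the smallest p were named. Other names were chosen after their values were seen. Intervals from reads and floors cover counting error only, and levels of different amplicons are not compared.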

Additional observations from a re-analysis of the deposited data

Results flagged for a closer look

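Within groups of 4 libraries, 4 of 108 sets of values from the tested members held a library far from the other 3, where chance flags about 1 in 20. Dnajb9 stood at 119.5 RPM in KO2, against 89.5 to 92.0 RPM in the other KO libraries. Dnajc10, an ER J-protein that reduces disulfides, stood at 22.9 RPM in the same library, KO2, against 26.2 to 26.7 RPM. Hspa12b, an Hsp70 relative of endothelium, stood at 29.8 RPM in KO1, against 18.4 to 19.7 RPM. Dnajc16 stood at 72.8 RPM in KO3, against 60.0 to 62.2 RPM.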

How the results depend on the processing

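No alternative brought a heat shock or DnaJ gene past the BH threshold, and the smallest adjusted p of a member was 0.0656, for Hsp90b1 without WT3. Sdhc was called under all alternatives, with estimates from -5.41 to -4.42. Members at an unadjusted p under 0.05, 3 as reported, numbered 6 with median-ratio, TMM and quantile scaling and with DESeq2, and 5 with edgeR. They numbered 2 to 7 when 1 library was left out (7 without WT3), and 2 without WT1 and WT4. Each 6 held 5 higher and 1 lower, edgeR 4 and 1, and the fit without WT3 5 and 2. Dnaja3 was among the added genes in all of these. The share of all genes at such a p was read only for the fit as reported (9.22%), so these counts have no background of their own. Genes called over the transcriptome, 3 as reported, numbered 149 with DESeq2, 1 with edgeR, the other scalings, no trend, the replicate block or without WT1 and WT4 or KO2 and KO4, and 1 to 130 when 1 library was left out (130 without WT3, 10 without KO1). Hsp90b1 stayed below 0 and Dnajc28 and Dnaja2 above 0 in every alternative in which they were tested. These 3 were named for their p in the same libraries that the alternatives reuse, so the kept signs are not separate support. Of the 3, only 1 kept an unadjusted p under 0.05 in limma without WT1 and WT4 (Dnajc28), and 1 without KO1 (Hsp90b1). Among all members, 9 changed sign with median-ratio or TMM scaling, 6 with quantile scaling and 10 without WT1 and WT4. Median-ratio and TMM scaling apply the same factor to every gene of a library. They moved the median over all tested genes from -0.05 to 0.003 and -0.001. The cause of the sign changes with quantile scaling or without WT1 and WT4 was not tested. Replicate numbers did not pair the libraries by their deviations from the group means (correlations 0.0034, 0.257, 0.125 and 0.105 for numbers 1 to 4). The deviations did follow sex as read from Xist and Ddx3y. WT and KO libraries of like sex correlated at 0.0034 to 0.279, and those of unlike sex at -0.325 to -0.068. The replicate block left 2 members at an unadjusted p under 0.05. Depth limits Hspa1a, Hspa1b and the other members near 1 RPM.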

Other observations

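The spread of Hspb6 and Hspb7 within the groups ran along the sex of the animals as read from the data. Replicates 2 and 4 of both groups held Xist at 92.0 to 117 RPM and the Y-linked Ddx3y at 0, and replicates 1 and 3 held Xist at 0 and Ddx3y at 90.3 to 115 RPM. Hspb7 averaged 741 RPM in the 4 libraries with Xist and 350.3 RPM in the 4 others, and Hspb6 2191 and 1360 RPM, with every library with Xist above every library without it in both genes. The sex term of these genes was read after their values were seen. In the limma fit with genotype and sex, the sex term of Hspb7 was 1.05 on the log2 scale (SE 0.18, BH-adjusted p = 0.0176), where 66 of 11004 genes (0.600%) passed. Hspb6 had 0.68 (SE 0.17, limma, BH-adjusted p = 0.103), and Hspb7 was the 1 of 54 members past the threshold. With sex in the fit the KO-minus-WT interval ran from -0.54 to 0.23 for Hspb7 and from -0.22 to 0.50 for Hspb6. Slow fibre markers were also higher in replicates 2 and 4 within each group, at 293 and 319 RPM against 180.5 and 181 RPM in WT1 and WT3, and at 500.2 and 864 RPM against 223 and 300.0 RPM in KO1 and KO3. Their part in the Hspb7 difference was not tested.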
